A study of Mus musculus with 12 samples.

Results

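Neutrophil granule and surface genes were followed in RNA-seq of whole mouse retina after excitotoxic injury with N-methyl-D-aspartate (NMDA), a glutamate receptor agonist that kills retinal ganglion cells. The set holds 9 genes, *S100a8*, *S100a9*, *Retnlg*, *Ngp*, *Camp*, *Ltf*, *Cxcr2*, *Csf3r* and *Ly6g*, each found once by its exact symbol among the 55487 genes of the table. They were chosen by symbol as genes of 1 cell type, with the choice made on their measured levels in these same libraries, across NMDA and across genotypes under PBS. Their levels and differences are therefore given as a description, and no p is given for any of them.

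The libraries were 12, 2 for each of 6 groups. WT retinas came from C57BL/6J mice (B6J in the labels). JNK3 KO retinas came from Jnk3-/- mice, a germline deletion of the neuronal kinase gene *Mapk10*. shPax6 retinas came from mice that, 2 months old by the study's text, had received 2 µL of an AAV2.7m8 vector carrying a U6-driven short hairpin RNA against *Pax6* and GFP. The age of the WT and JNK3 KO mice of these libraries is not given in the sources used here. Each kind of retina received 1 µL of PBS or 1 µL of 40 mM NMDA (40 nmol) into the vitreous. The vector retinas were injected once more than the others, and no retina with the scrambled hairpin is among the 12 libraries, so the vector, its injection and the loss of *Pax6* cannot be told apart. Each library pooled poly(A) RNA of more than 3 retinas, and nothing in the labels says whether the 2 libraries of a group came from separate animals. The spread between them may then be technical.

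Neutrophils are short-lived phagocytes that mature in the bone marrow and enter tissue from blood when chemokines and adhesion molecules call them in. Their granule proteins are made in waves: the azurophil proteins in early precursors, the secondary granule proteins in later precursors, and other products in mature cells in the circulation. A healthy retina lies behind a blood barrier and holds few such cells outside its vessels. *S100a8* and *S100a9* encode the subunits of calprotectin, the most abundant protein complex of the neutrophil cytosol. *Retnlg* encodes a resistin-like protein of circulating neutrophils. *Ngp*, *Camp* and *Ltf* encode the secondary granule proteins neutrophilic granule protein, cathelicidin and lactoferrin. *Cxcr2* is the receptor through which chemokines draw neutrophils, *Csf3r* is the receptor for granulocyte colony-stimulating factor, and *Ly6g* is the surface antigen by which mouse neutrophils are defined.

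*S100a8* and *S100a9* are neighbours on chromosome 3 of GRCm38. *S100a8* lies at chr3:90668978-90670035 on the plus strand and *S100a9* at chr3:90692632-90695721 on the minus strand, with a gap of 22.6 kb. *Camp* at chr9:109847379-109849617, *Ngp* at chr9:110419747-110423012 and *Ltf* at chr9:111019271-111042767 share a stretch of chromosome 9, *Ngp* lying 570.1 kb from *Camp* and 596.3 kb from *Ltf*. *Retnlg* lies at chr16:48872621-48874496, *Cxcr2* at chr1:74153989-74161246, *Csf3r* at chr4:126024550-126044440 and *Ly6g* at chr15:75155240-75159126.

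The 250 bases before the start of 4 members are printed because these genes represent calprotectin, a product of circulating cells, a secondary granule protein and a surface receptor, whose levels differed in pattern as described further on. The sequences are RefSeq promoter entries on GRCm38.p6, 5′ to 3′ on the gene's strand, for *S100a9* at chr3:90695722-90695971 (minus), *Retnlg* at chr16:48872358-48872607 (plus), *Ltf* at chr9:111019042-111019291 (plus) and *Cxcr2* at chr1:74153744-74153993 (plus). Capitals mark the letters TTGCNNAA, read on either strand, a short form of the site bound by C/EBP proteins, which drive granule genes during granulocyte development.
S100a9: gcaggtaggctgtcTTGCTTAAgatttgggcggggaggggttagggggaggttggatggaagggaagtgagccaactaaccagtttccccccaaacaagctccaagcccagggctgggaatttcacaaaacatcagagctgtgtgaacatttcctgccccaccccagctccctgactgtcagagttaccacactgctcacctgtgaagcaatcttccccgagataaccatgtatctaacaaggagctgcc
Retnlg: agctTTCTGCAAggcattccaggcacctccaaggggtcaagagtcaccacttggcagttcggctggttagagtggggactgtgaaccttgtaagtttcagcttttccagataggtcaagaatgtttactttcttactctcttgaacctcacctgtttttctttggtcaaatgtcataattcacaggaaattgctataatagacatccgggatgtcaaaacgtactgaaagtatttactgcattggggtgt
Ltf: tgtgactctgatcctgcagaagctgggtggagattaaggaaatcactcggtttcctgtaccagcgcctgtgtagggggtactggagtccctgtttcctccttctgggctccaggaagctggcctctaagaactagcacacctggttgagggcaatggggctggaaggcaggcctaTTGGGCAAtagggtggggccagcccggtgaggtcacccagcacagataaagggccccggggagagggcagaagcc
Cxcr2: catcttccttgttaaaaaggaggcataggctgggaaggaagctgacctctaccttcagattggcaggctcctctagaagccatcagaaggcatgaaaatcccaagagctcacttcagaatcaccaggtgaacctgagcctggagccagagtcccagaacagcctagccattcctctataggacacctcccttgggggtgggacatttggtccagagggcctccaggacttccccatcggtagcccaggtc
The letters occur once in the windows of *S100a9*, *Retnlg* and *Ltf* and not in that of *Cxcr2*. All 9 members matched RefSeq entries, 10 windows in all because *Ly6g* has 2 starts, and 5 of the 10 held the letters, against 9.56% of 32851 mouse windows of the same length. The letters GAGGAA, the core bound by PU.1, were in 6 of the 10 and in 23.3% of all. A match describes the letters only.

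FPKM, fragments normalised to transcript length and library size, are compared between libraries and, being per length, between genes. The read count behind a value is unknown. *Pax6* was lower in the shPax6 PBS libraries, at 94.6 and 92.8 FPKM against 173 and 177 in WT PBS, and *Mapk10* was lower in the JNK3 KO PBS libraries, at 9.47 and 8.75 FPKM against 42.8 and 50.7. Neither target was lower than in WT after NMDA. There *Pax6* was at 67.5 and 58.7 FPKM in shPax6 against 55.4 and 53.8 in WT. *Mapk10* was at 6.65 and 13.8 FPKM in JNK3 KO NMDA against 8.98 and 6 in WT NMDA, which overlap. Rod genes, which define the tissue, summed to between 19900 and 34900 FPKM in every library. The summed FPKM of all genes was 805627 and 820180 in the WT NMDA libraries and between 541210 and 576922 in the other 10. In WT, the median NMDA difference also depended on spliced length, from 0.84 on the log2 scale for genes of 1 to 2 kb to -0.61 for genes over 4 kb. *S100a8*, *S100a9*, *Retnlg*, *Camp* and *Ly6g* are under 1 kb, a class with a WT median of 0.44. *Ngp*, at 1222 bases, is in the class of 1 to 2 kb. *Ltf*, *Cxcr2* and *Csf3r* are 3048 to 3609 bases, in the class of 2 to 4 kb, with a median of 0.23. With the trend on length removed, the WT NMDA minus PBS difference of *S100a8* was 2.1 rather than 2.77. That of *Ly6g* was 2.68 rather than 3.44, and that of *Ngp* 3.72 rather than 4.53.

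Calprotectin carried most of the signal. *S100a8* stood at 92.6 and 108 FPKM in WT PBS, against 645 and 721 FPKM in WT NMDA. In shPax6 it stood at 1.44 and 1.14 FPKM under PBS and at 22.9 and 31.6 FPKM after NMDA. In JNK3 KO the order was the other way, with 57.3 and 65.6 FPKM under PBS and 6.42 and 5.29 FPKM after NMDA. The 6 groups did not overlap anywhere, and their order was WT NMDA, WT PBS, JNK3 KO PBS, shPax6 NMDA, JNK3 KO NMDA and shPax6 PBS.

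*S100a9* followed the same order, again without overlap between neighbouring groups. It was at 92.9 and 99.6 FPKM in WT PBS, against 1146 and 1115 FPKM in WT NMDA. The shPax6 libraries had 2.23 and 1.84 FPKM under PBS and 31.3 and 32.0 FPKM after NMDA. The JNK3 KO libraries had 70.7 and 76.1 FPKM under PBS and 4.34 and 6.61 FPKM after NMDA. The pair made up 81.1% to 92.2% of the summed FPKM of the 9 members in 10 libraries, and 43% and 57.8% in the shPax6 PBS libraries. The ratio of *S100a9* to *S100a8* was between 0.676 and 1.78 in all 12.

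**Figure D1:**
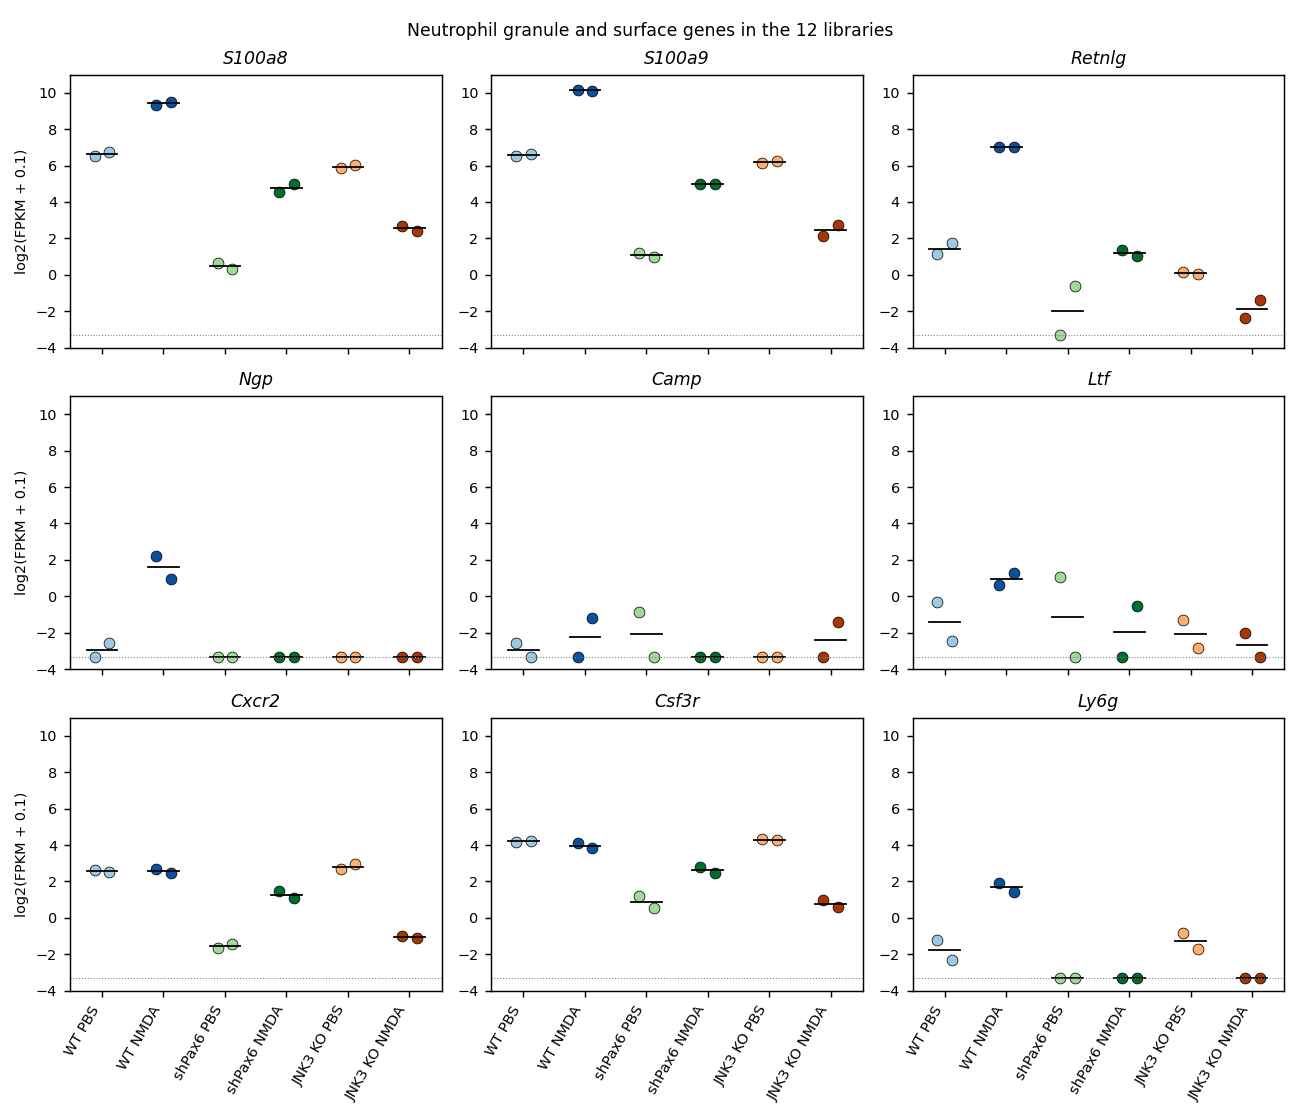
Levels of the 9 members as log2(FPKM + 0.1), with 1 point for each of the 12 libraries, a bar for the mean of the 2 libraries of a group, and a dotted line where a gene is listed at 0. *S100a8*, *S100a9* and *Retnlg* are highest in WT NMDA, whereas *Cxcr2* and *Csf3r* are about as high in WT PBS and JNK3 KO PBS as in WT NMDA.

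*Retnlg* was far higher in WT NMDA than in every other group. It was at 2.09 and 3.2 FPKM in WT PBS, against 129 and 128 FPKM in WT NMDA. shPax6 libraries listed it at 0 and 0.54 FPKM under PBS and at 2.49 and 1.96 FPKM after NMDA, and JNK3 KO libraries at 1 and 0.92 FPKM under PBS and 0.09 and 0.28 FPKM after NMDA. WT PBS and shPax6 NMDA overlapped, as did shPax6 PBS and JNK3 KO NMDA.

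Of the secondary granule genes, *Ngp* was near or at 0 outside 1 group. It was at 4.58 and 1.83 FPKM in WT NMDA, at 0 and 0.07 FPKM in WT PBS, and listed at 0 in all 8 shPax6 and JNK3 KO libraries. *Ltf* had no such order: 1.43 and 2.34 FPKM in WT NMDA, 0.7 and 0.08 FPKM in WT PBS, 1.99 and 0 FPKM in shPax6 PBS, and at most 0.58 FPKM in the other 6 libraries. Every neighbouring pair of groups overlapped for *Ltf*. Its highest values sat on 1 of its 12 listed transcripts, Ltf-211, with 1.81 FPKM in the second WT NMDA library and 1.99 FPKM in the first shPax6 PBS library, while Ltf-201 stayed at or under 0.64 FPKM. *Camp* was at 0.46 FPKM or less in all 12 libraries. It was the 1 member with no group mean above 1 FPKM, so it was not fitted, and its groups all overlapped.

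The receptors did not share the WT NMDA peak. *Cxcr2* was at 6.03 and 5.69 FPKM in WT PBS, with 6.42 and 5.33 FPKM in WT NMDA, ranges that overlap. In shPax6 it was at 0.22 and 0.27 FPKM under PBS and 2.73 and 1.99 FPKM after NMDA. In JNK3 KO it was at 6.3 and 7.59 FPKM under PBS and 0.41 and 0.36 FPKM after NMDA.

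*Csf3r* had the same shape. It was at 18.2 and 18.9 FPKM in WT PBS and slightly lower, at 17.0 and 14.2 FPKM, in WT NMDA. The shPax6 libraries held 2.2 and 1.37 FPKM under PBS and 6.95 and 5.49 FPKM after NMDA, the JNK3 KO libraries 20.1 and 19.1 FPKM under PBS and 1.86 and 1.4 FPKM after NMDA. In WT most of it came from the transcript Csf3r-201, at 13.3 and 13.4 FPKM under PBS and 14.3 and 12.6 FPKM after NMDA. In the first shPax6 NMDA library Csf3r-201 and Csf3r-202 were level, at 2.74 and 2.77 FPKM.

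*Ly6g*, the defining surface antigen, was low throughout. It was at 0.33 and 0.1 FPKM in WT PBS, 3.74 and 2.55 FPKM in WT NMDA and 0.46 and 0.2 FPKM in JNK3 KO PBS. It was listed at 0 in the other 6 libraries, which include both shPax6 NMDA libraries, where *S100a8* stood above 20 FPKM. Its near-identical relatives in the Ly6 family could take some of its reads, and their share was not tested. Because the tissue was bulk retina, the number of neutrophils, the RNA per neutrophil and RNA from other cells cannot be told apart for any of these genes.

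In WT, the difference between NMDA and PBS on the scale log2(FPKM + 0.1) was 2.77 ± 0.18 (SE of the fit, 2 libraries a group throughout) for *S100a8*, 3.55 ± 0.17 for *S100a9*, 5.58 ± 0.72 for *Retnlg*, 4.53 ± 0.78 for *Ngp* and 3.44 ± 0.67 for *Ly6g*. These 5 of the 8 fitted members passed the criteria used for all genes as higher and 0 as lower, where 14.2% of the 16471 genes fitted passed as higher and 20.1% as lower. Without *Ngp* and *Ly6g*, which a minimum on the mean over the 12 libraries would drop, the count was 3. *Ltf* had a difference of 2.35 ± 1.5. The receptors differed from the granule genes in this contrast, at 0 ± 0.25 for *Cxcr2* and -0.26 ± 0.23 for *Csf3r*. The sign for *Cxcr2* depended on the scaling, -0.57 as TPM and 0.38 after quantile normalization. The median of the 8 was 3.1, and that of all genes was -0.09. TPM shifted the median of all genes to -0.66, so that on that scale *S100a8* (2.2) and *S100a9* (2.98) were still above it.

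In shPax6, 5 members again passed as higher and 0 as lower, but not the same 5. *S100a8* differed by 4.29 ± 0.18, *S100a9* by 3.9 ± 0.17, *Retnlg* by 3.19 ± 0.72, *Cxcr2* by 2.82 ± 0.25 and *Csf3r* by 1.77 ± 0.23. Of all genes 8.42% passed as higher and 4.61% as lower. *Retnlg* and *Csf3r* no longer passed when the spread was estimated from the compared groups alone, and *Retnlg* no longer passed without the first shPax6 NMDA library. *Ltf* differed by -0.81 ± 1.5, and *Ngp* and *Ly6g* were listed at 0 in all 4 libraries.

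In JNK3 KO the differences had the opposite sign. *S100a8* differed by -3.37 ± 0.18, *S100a9* by -3.75 ± 0.17, *Cxcr2* by -3.86 ± 0.25 and *Csf3r* by -3.52 ± 0.23, and these 4 passed as lower. *Retnlg*, at -1.98 ± 0.72, did not pass, and 0 members passed as higher. Of all genes 0.777% passed as higher and 1.77% as lower. *Ltf* differed by -0.6 ± 1.5, and *Ngp* was listed at 0 in both groups. The calprotectin genes and the receptors differed by similar amounts here, and the ratio of *S100a8* to *Csf3r*, a mean over the 2 libraries of a group, was 3.14 under PBS and 3.62 after NMDA. In WT the same ratio was 5.4 under PBS and 44.4 after NMDA, and in shPax6 it was 0.744 and 4.53.

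**Figure D2:**
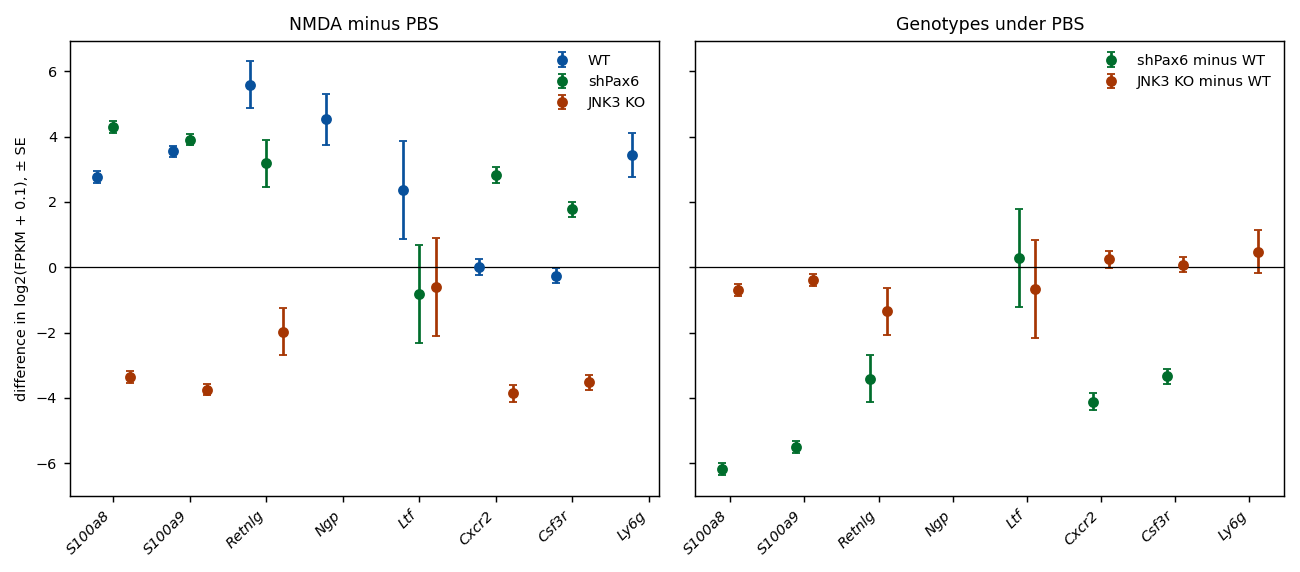
Difference in log2(FPKM + 0.1) for the 8 fitted members, NMDA minus PBS in each genotype (left) and each genotype minus WT under PBS (right), with points for the fitted difference of 2 against 2 libraries and bars of ± 1 SE. Pairs in which a group was listed at 0 are not drawn. Points for *S100a8* and *S100a9* lie above 0 in WT and shPax6 and below 0 in JNK3 KO, and the shPax6 minus WT points for *Cxcr2* and *Csf3r* lie below -3.

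The direction also separated the libraries group by group. After NMDA in WT, both libraries lay above both PBS libraries for 6 of the 8 fitted members and below for 1, *Csf3r*, against 36.9% and 44.3% of all genes. Among the 6, *Ngp*, *Ltf* and *Ly6g* had a mean above 1 FPKM only in WT NMDA, at 3.205, 1.885 and 3.145 FPKM. They were therefore fitted only through the group where they were high, which favours this direction in the count. In shPax6, 5 lay above and 0 below, against 35% and 22% of all genes. In JNK3 KO, 0 lay above and 6 below, against 28.7% and 32.8% of all genes.

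Under PBS the shPax6 retinas had the lowest levels. Relative to WT PBS, *S100a8* differed by -6.18 ± 0.18, *S100a9* by -5.5 ± 0.17, *Retnlg* by -3.41 ± 0.72, *Cxcr2* by -4.11 ± 0.25 and *Csf3r* by -3.34 ± 0.23. These 5 passed as lower and 0 as higher, where 3.66% and 0.504% of all genes did. *Retnlg* no longer passed when either WT PBS library was left out, or with the spread estimated from the compared groups alone. *Ly6g* was listed at 0 in both shPax6 PBS libraries, and *Ltf* differed by 0.27 ± 1.5. Both shPax6 PBS libraries lay below both WT PBS libraries for 6 of the 8 and above them for 0, against 35.1% and 22.3% of all genes.

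JNK3 KO and WT retinas were closer under PBS. *S100a8* differed by -0.7 ± 0.18 and *S100a9* by -0.39 ± 0.17, with no overlap between the 2 libraries of each group. *Retnlg* differed by -1.34 ± 0.72, *Cxcr2* by 0.24 ± 0.25, *Csf3r* by 0.08 ± 0.23 and *Ly6g* by 0.48 ± 0.67. Of the 8, 0 passed in either direction with limma, where 0.103% of all genes passed as higher and 0.127% as lower, 38 genes in all. At an unadjusted p under 0.05, 187 genes would pass. Both JNK3 KO PBS libraries lay above both WT PBS libraries for 2 members and below them for 3, against 27% and 26.7% of all genes. Against JNK3 KO PBS, 4 members passed as lower in shPax6 PBS and 0 as higher, against 3.2% and 0.741% of all genes. *S100a8* differed by -5.47 ± 0.18 and *Csf3r* by -3.42 ± 0.23 in that pair.

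The 3 NMDA responses were also set against each other on the log2 scale. WT and shPax6 differed under PBS, with *S100a8* means of 100.1 and 1.29 FPKM. The differences between responses therefore also depend on the PBS levels. The WT response minus the shPax6 response was -1.52 ± 0.25 for *S100a8* and -0.35 ± 0.24 for *S100a9*. The *S100a8* difference was -0.85 and no longer passed with a pseudocount of 1. That of *S100a9* had the other sign, 0.11, with a pseudocount of 1, was -0.9 as TPM, and passed after quantile normalization, at -1.38. For the receptors it was -2.82 ± 0.35 (*Cxcr2*) and -2.03 ± 0.33 (*Csf3r*), and for *Retnlg* 2.39 ± 1.02. In all, 2 members, *Ngp* and *Ly6g*, both listed at 0 in shPax6, passed as higher in WT and 3 as lower, where 10.3% and 21.6% of all genes did. For *Retnlg* the difference passed with pseudocounts of 0.5 and 1 but not with the 0.1 used here. Against JNK3 KO, the WT response was higher for 7 of 8 members, among them *S100a8* by 6.14 ± 0.25 and *Retnlg* by 7.56 ± 1.02, where 15.5% of all genes passed as higher and 19.9% as lower. The 7 include *Ngp* and *Ly6g*, fitted only through their WT NMDA means and listed at 0 in both JNK3 KO NMDA libraries. Their differences depend on the pseudocount, at 4.53 and 5.48 with 0.1 and 1.94 and 2.17 with 1. The shPax6 response was higher than that of JNK3 KO for 5, among them *Cxcr2* by 6.68 ± 0.35 and *Csf3r* by 5.29 ± 0.33, where 6.48% of all genes passed as higher and 2.14% as lower. Each pair of responses shares 1 genotype with another pair, so these counts are not independent of each other.

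Genes of other blood cells moved with the members in part. Erythroid genes (the 5 genes *Hba-a1*, *Hba-a2*, *Hbb-bs*, *Hbb-bt* and *Alas2*) mark red blood cells. Their summed level was 97.3 and 107 FPKM in WT PBS, 613 and 650.0 FPKM in WT NMDA, 50.3 and 28.7 FPKM in shPax6 PBS, 126 and 120.0 FPKM in shPax6 NMDA, 126 and 123 FPKM in JNK3 KO PBS, and 69.4 and 79.7 FPKM in JNK3 KO NMDA. All 5 rose after NMDA in WT and 4 of 5 in shPax6, 0 of 5 passed in JNK3 KO, and 4 of 5 were lower in shPax6 PBS than in WT PBS (limma, Benjamini-Hochberg adjusted p under 0.05). Of all genes 14.2% rose in WT and 8.42% in shPax6, and 3.66% were lower in shPax6 PBS than in WT PBS. Each of the 5 erythroid genes was above 0 in at least 1 library of every group of the study. The part of blood in the members' differences was not tested.

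Levels can also be given relative to *Hbb-bs*, the adult beta globin gene, as ratios of group means. In WT the ratio of *S100a8* was 1.94 under PBS and 2.27 after NMDA, that of *S100a9* 1.86 and 3.76, and that of *Retnlg* 0.0512 and 0.428. *Cxcr2*, at 0.113 and 0.0195, and *Csf3r*, at 0.359 and 0.0517, had lower ratios after NMDA in WT. The WT ratios therefore went up by different amounts for the first 3 genes and down for the receptors. In shPax6 the ratios were higher after NMDA for all 5, from 0.0536 to 0.494 for *S100a8*, from 0.0846 to 0.574 for *S100a9*, from 0.0112 to 0.0403 for *Retnlg*, from 0.0102 to 0.0428 for *Cxcr2* and from 0.0742 to 0.113 for *Csf3r*. In JNK3 KO they were lower for all 5, from 0.989 to 0.169 for *S100a8*, from 1.18 to 0.158 for *S100a9*, from 0.0155 to 0.00534 for *Retnlg*, from 0.112 to 0.0111 for *Cxcr2* and from 0.315 to 0.047 for *Csf3r*. The ratios of the other 4 members rest on values near 0, and in WT went from 0.000677 to 0.0107 for *Ngp*, from 0.00416 to 0.0105 for *Ly6g*, from 0.00755 to 0.00626 for *Ltf* and from 0.000677 to 0.000565 for *Camp*.

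**Figure D3:**
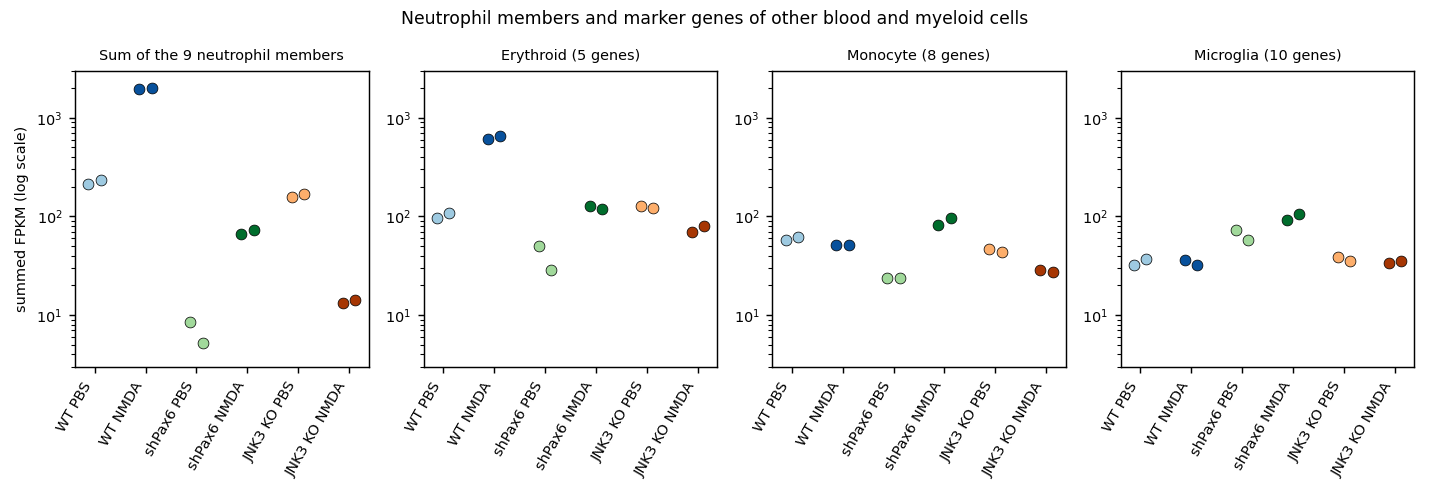
Summed FPKM, on a log axis, of the 9 neutrophil members and of marker genes of erythroid cells, monocytes and microglia, with 1 point for each of the 12 libraries. The member sum and the erythroid sum are both highest in WT NMDA, while the monocyte and microglia sums are highest in shPax6 NMDA.

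Monocyte genes (*Ccr2*, *Ly6c2*, *Plac8* and 5 more) had another order. Their sum was 58.2 and 62.4 FPKM in WT PBS and 51.0 and 51.2 FPKM in WT NMDA. It was 23.9 FPKM in both shPax6 PBS libraries and 81.8 and 96.7 FPKM in shPax6 NMDA, and in JNK3 KO it was 47.0 and 43.7 FPKM under PBS and 28.5 and 27.6 FPKM after NMDA. After NMDA, all 7 genes tested rose in shPax6, 1 rose and 1 fell in WT, and 2 fell in JNK3 KO. Of all genes 8.42% rose in shPax6, 14.2% rose and 20.1% fell in WT, and 1.77% fell in JNK3 KO. Microglial genes (*Tmem119*, *P2ry12*, *Cx3cr1* and 7 more) summed to between 32.0 and 38.5 FPKM in all WT and JNK3 KO libraries, and to 72.2 and 57.0 FPKM in shPax6 PBS and 92.7 and 105 FPKM in shPax6 NMDA.

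Genes of T and B cells summed to at most 1.91 FPKM in every library apart from shPax6 NMDA, at 9.42 and 5.76 FPKM, and genes of eosinophils, basophils and mast cells to at most 1.89 FPKM in all 12. Platelet genes summed to 4.67 and 6.05 FPKM in WT PBS, 35.9 and 22.4 FPKM in WT NMDA, 2.65 and 3.06 FPKM in shPax6 PBS, 42.6 and 33.6 FPKM in shPax6 NMDA, and between 4.45 and 8.2 FPKM in JNK3 KO. Of 3 platelet genes tested, 2 rose after NMDA in WT and 1 in shPax6, and 0 passed in JNK3 KO. Of all genes 14.2% rose in WT and 8.42% in shPax6. The platelet gene that rose in shPax6 was *Pf4*, at 41.4 and 28.8 FPKM after NMDA. In the same libraries *Gp1bb* was at 0 and 1.06 FPKM and *Itga2b* at 0.5 and 3.67 FPKM, and neither passed. The part of these cells in the members' values was not tested. Among genes of neutrophil precursors, *Mpo* was at most 0.22 FPKM, *Elane* at most 0.1 FPKM, *Ctsg* was listed at 0 in all 12, and the transcription factors *Cebpe* and *Gfi1* were at most 0.4 and 0.34 FPKM. *Prtn3*, an azurophil protease, was the exception, at 0.82 to 3.52 FPKM in all 12.

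Companion genes in 5 lists, none of them members, were tested with limma over all 16471 genes, with Benjamini-Hochberg adjusted p-values. The lists were chosen with earlier results of these data known, and most genes named were picked by lowest adjusted p. Their p-values and counts are therefore no independent support for the members' differences. The first list holds further granule and oxidase genes, of which 19 of 27 were tested. After NMDA, 6 rose and 1 fell in WT, 8 rose and 0 fell in shPax6, and 0 rose and 5 fell in JNK3 KO. Of all genes 14.2% rose and 20.1% fell in WT, 8.42% and 4.61% in shPax6, and 0.777% and 1.77% in JNK3 KO. The list's medians were 0.93, 1.68 and -1.11, where those of all genes were -0.09, 0.1 and -0.01. *Cyba*, a subunit of the oxidase that makes superoxide, rose by 2.07 ± 0.17 in WT (adjusted p = 7.87e-06). *Wfdc21* rose by 2.36 ± 0.42 (adjusted p = 0.000953) and *Pglyrp1*, a peptidoglycan-binding granule protein, by 1.85 ± 0.42 (adjusted p = 0.00431).

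*Lcn2*, which encodes the iron-carrier binding protein lipocalin-2 and is also made by reactive glia, was at 774 and 805 FPKM in WT PBS and 934 and 873 FPKM in WT NMDA. It was at 507 and 500.3 FPKM in shPax6 PBS and 2030 and 1997 FPKM in shPax6 NMDA, while JNK3 KO libraries held 586 and 563 FPKM under PBS and 130 and 137 FPKM after NMDA. It rose in shPax6 by 2 ± 0.05 (adjusted p = 3.87e-08) and fell by 2.11 in JNK3 KO (SE 0.05, adjusted p = 8.8e-08). Its highest group was therefore shPax6 NMDA and not WT NMDA, the highest group of *S100a8*. *Lyz2*, the lysozyme of neutrophils, monocytes and macrophages, rose in shPax6 by 3.08 ± 0.06 (adjusted p = 2.38e-08), and *Anxa1*, an annexin of leukocytes, by 1.5 ± 0.11 (adjusted p = 1.38e-05). *Hp*, haptoglobin, was at 19.4 and 19.8 FPKM in WT PBS, 41.1 and 34.2 FPKM in WT NMDA, 10.2 and 11.3 FPKM in JNK3 KO PBS and 0.87 and 0.75 FPKM in JNK3 KO NMDA. It fell by 3.57 in JNK3 KO (SE 0.24, adjusted p = 5.44e-05), as *Wfdc21* did by 4.59 (SE 0.42, adjusted p = 0.000329).

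The second list holds further surface and signalling genes of neutrophils, of which 21 of 22 were tested. After NMDA 8 rose and 1 fell in WT, 8 rose and 1 fell in shPax6, and 0 rose and 11 fell in JNK3 KO, with medians of 0.74, 1.7 and -1.72. The shares of all genes were 14.2% up and 20.1% down in WT, 8.42% and 4.61% in shPax6, and 0.777% and 1.77% in JNK3 KO. *Hdc*, the enzyme that makes histamine, rose in WT by 1.84 ± 0.21 (adjusted p = 6.48e-05) and was the 1 that fell in shPax6, by 1.25 (SE 0.21, adjusted p = 0.00227). *Itgam*, the integrin chain CD11b of neutrophils, monocytes and microglia, fell in WT by 1.22 (SE 0.17, adjusted p = 0.000236) and in JNK3 KO by 1.44 (SE 0.17, adjusted p = 0.0013), and rose in shPax6 by 1.33 ± 0.17 (adjusted p = 0.000502). *Mrgpra2b*, a receptor gene of mouse neutrophils, rose in WT by 2.7 ± 0.62 (adjusted p = 0.00422). Only its WT NMDA mean, 3.725 FPKM, was above the minimum of 1 FPKM. The Fc receptor gene *Fcgr4* rose in shPax6 by 2.7 ± 0.19 (adjusted p = 1.2e-05), the lectin gene *Clec4d* by 4.02 ± 0.41 (adjusted p = 0.000121) and the interleukin-1 decoy receptor gene *Il1r2* by 4.26 ± 0.37 (adjusted p = 4.84e-05). In JNK3 KO, *Selplg*, the ligand of selectins, fell by 2.73 (SE 0.15, adjusted p = 2.1e-05) and *Il1r2* by 3.24 (SE 0.37, adjusted p = 0.00111).

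The third list holds attractants and growth factors, of which 11 of 16 were tested. In WT 9 rose and 1 fell after NMDA, in shPax6 8 rose and 0 fell, and in JNK3 KO 0 rose and 3 fell, with medians of 3.49, 3.48 and -1.64. The shares of all genes were 14.2% up and 20.1% down in WT, 8.42% and 4.61% in shPax6, and 0.777% and 1.77% in JNK3 KO. For 6 of the 11 both shPax6 PBS libraries were listed at 0. The size of their shPax6 differences, and of the median of 3.48, therefore depends on the 0.1 FPKM added. *Cxcl1*, *Cxcl2*, *Cxcl3*, *Cxcl5* and *Ppbp* encode ligands of *Cxcr2*. *Cxcl2* was at 0.98 and 1.37 FPKM in WT PBS, 36.0 and 36.9 FPKM in WT NMDA, 26.9 and 17.4 FPKM in shPax6 NMDA, 1.56 and 0.37 FPKM in JNK3 KO PBS and 0.24 and 0.07 FPKM in JNK3 KO NMDA. It was listed at 0 in both shPax6 PBS libraries, as were *Cxcl1* and *Cxcl3*. *Cxcl5*, at most 0.77 FPKM in any library, and *Ppbp*, at most 0.7 FPKM, were too low to be tested. *Cxcl5* was at 0.77 and 0.67 FPKM in WT NMDA and 0 and 0.1 FPKM in shPax6 NMDA, and *Ppbp* was listed at 0 in both WT NMDA libraries.

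*Cxcl1* rose in WT by 3.79 ± 0.4 (adjusted p = 3.6e-05), *Cxcl3* by 4.43 ± 0.52 (adjusted p = 6.47e-05) and *Ccl3*, a chemokine of activated myeloid cells, by 3.49 ± 0.24 (adjusted p = 2.08e-06). *Ccl3* rose in shPax6 by 3.48 ± 0.24 (adjusted p = 1.08e-05). *Il1b*, the inflammatory cytokine interleukin-1 beta, fell in JNK3 KO by 4.03 (SE 0.35, adjusted p = 0.00023), the cytokine gene *Tnf* by 1.64 (SE 0.42, adjusted p = 0.0409) and the complement gene *C3* by 2.11 (SE 0.21, adjusted p = 0.000569). *C3* was also the 1 that fell in WT. *Csf3*, which encodes the ligand of *Csf3r* and was singled out after its values were seen, was at 4.94 and 5.61 FPKM in WT NMDA and at or under 0.5 FPKM in the other 10 libraries. Its WT NMDA minus PBS difference was 4.33 ± 0.73, given as a description without p. Only its WT NMDA mean, 5.275 FPKM, was above the minimum of 1 FPKM. In shPax6 NMDA, where *Csf3r* was higher than under PBS, *Csf3* was at 0 and 0.17 FPKM.

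**Figure D4:**
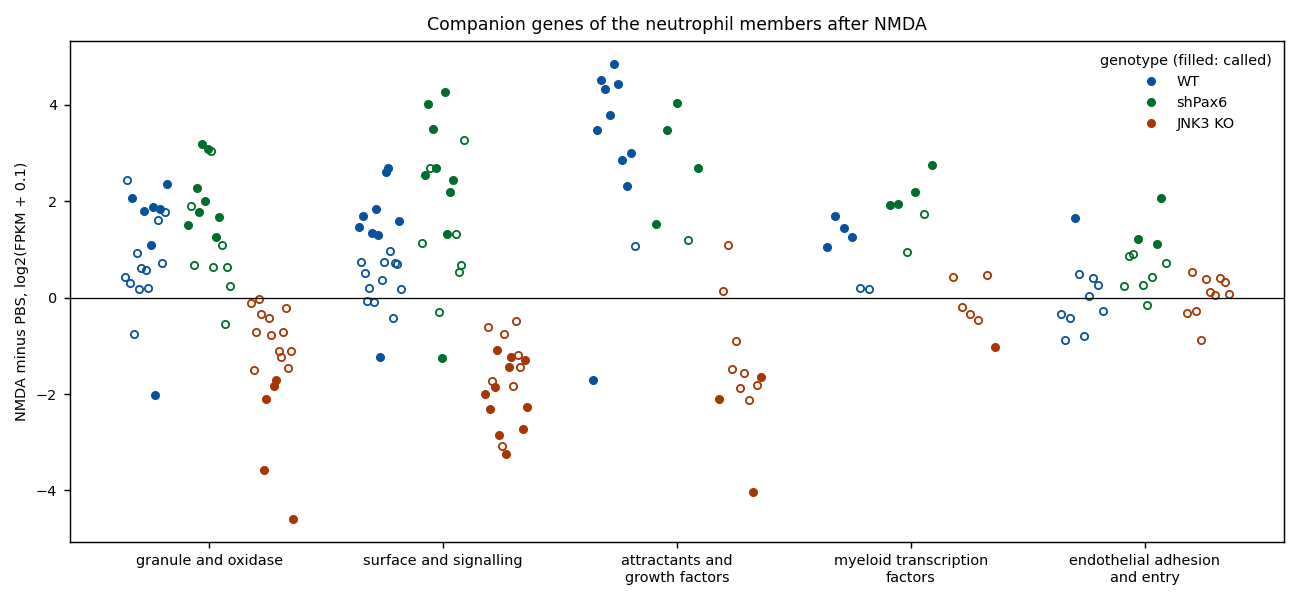
NMDA minus PBS difference in log2(FPKM + 0.1) of the companion genes tested, by list and genotype, with filled points for genes that passed the test and open points for those that did not. Genes with a group listed at 0 are not drawn, 8 granule or surface genes and 6 attractants in shPax6 and 3 granule or surface genes in JNK3 KO. Among the granule, surface and attractant genes drawn, filled points are mostly above 0 in WT and shPax6 and all below 0 in JNK3 KO.

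Myeloid transcription factor genes and endothelial entry genes were the remaining lists. Of 6 transcription factor genes tested, 4 rose after NMDA in WT, 4 in shPax6 and 0 in JNK3 KO, where 1 fell. The shares of all genes were 14.2% up in WT, 8.42% up in shPax6, and 0.777% up and 1.77% down in JNK3 KO. In WT *Cebpd* rose by 1.44 ± 0.11 (adjusted p = 3.73e-06), *Irf8* by 1.26 ± 0.13 (adjusted p = 3.23e-05) and *Cebpb* by 1.69 ± 0.32 (adjusted p = 0.00152). *Spi1*, which encodes PU.1, rose in shPax6 by 2.75 ± 0.17 (adjusted p = 6.6e-06) and was the 1 that fell in JNK3 KO, by 1.03 (SE 0.17, adjusted p = 0.0066). In shPax6 *Irf8* also rose, by 2.19 ± 0.13 (adjusted p = 5.77e-06), and *Cebpa*, by 1.93 ± 0.21 (adjusted p = 0.000183).

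Of 10 endothelial genes, 1 rose in WT, 3 in shPax6 and 0 in JNK3 KO, and 0 fell. Of all genes 14.2% rose in WT, 8.42% in shPax6 and 0.777% in JNK3 KO. *Icam1*, the ligand of leukocyte integrins on vessel walls, rose by 1.65 ± 0.21 in WT (adjusted p = 0.000104) and by 1.22 ± 0.21 in shPax6 (adjusted p = 0.00219). In shPax6 the junction gene *Pecam1* rose by 1.11 ± 0.2 (adjusted p = 0.00327) and P-selectin, *Selp*, by 2.07 ± 0.61 (adjusted p = 0.0298).

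Under PBS most companion genes that passed were lower in shPax6 than in WT, the direction of the members. Of the granule genes 9 of 19 were lower and 1 higher, and of the surface genes 14 of 21 lower and 0 higher. Of the attractants 4 of 11 were lower, of the transcription factors 2 of 6 and of the endothelial genes 1 of 10. Of all genes 3.66% were lower and 0.504% higher. *Hp* had a difference of -5.67 ± 0.24 (adjusted p = 2.68e-06), *Lyz2* of -1.78 ± 0.06 (adjusted p = 1.05e-06), *Il1r2* of -4.76 ± 0.37 (adjusted p = 7.21e-05), *Il1b* of -4.19 ± 0.35 (adjusted p = 9.33e-05) and *Spi1* of -2.26 ± 0.17 (adjusted p = 6.04e-05). The 1 granule gene higher in shPax6 PBS, singled out after its values were seen, was *Prtn3*, at 3.11 and 2.07 FPKM against 1.4 and 0.83 FPKM in WT PBS. Its difference was 1.16 ± 0.32, given as a description without p. Between JNK3 KO and WT under PBS, 0 genes of any companion list passed in limma.

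The genes most like the members over the 12 libraries were taken as those with the highest Pearson r to the mean z-score of the 8 fitted members. The libraries share 6 groups, so r here mostly follows group means. *Il1b* came first (r = 0.981), then *Tmem145* (0.977), *Marcksl1* (0.975), *Gmfg* (0.974), *Asprv1* (0.958), *Alox5ap* (0.957), *Pld3* (0.955), *Pbx4* (0.954), *Fpr1* (0.95) and *Hbb-bs* (0.946). *Il1b* was at 15.9 and 18.6 FPKM in WT PBS, 89.7 and 82.1 FPKM in WT NMDA, 1.3 and 0.54 FPKM in shPax6 PBS, 4.74 and 7.63 FPKM in shPax6 NMDA, 14.9 and 12.96 FPKM in JNK3 KO PBS and 0.86 and 0.67 FPKM in JNK3 KO NMDA. Its groups had the order of those of *S100a8*, except that JNK3 KO NMDA and shPax6 PBS changed places at the low end. *Alox5ap*, needed for leukotriene synthesis, was at 61.4 and 61.5 FPKM in WT NMDA and at most 28.0 FPKM elsewhere. *Fpr1*, the receptor for formylated bacterial peptides, was at 7.76 and 10.2 FPKM in WT NMDA and listed at 0 in shPax6 PBS.

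The members differed in how closely they followed each other. The r of each with the mean of the others was 0.953 for *S100a8*, 0.976 for *S100a9*, 0.915 for *Ly6g*, 0.886 for *Retnlg*, 0.779 for *Cxcr2*, 0.772 for *Csf3r*, 0.758 for *Ngp* and 0.474 for *Ltf*. The mean z-score itself was 1.53 and 1.42 in WT NMDA, 0.4 and 0.26 in WT PBS, 0.29 and 0.14 in JNK3 KO PBS, -0.28 and -0.13 in shPax6 NMDA, -0.83 and -0.92 in JNK3 KO NMDA, and -0.8 and -1.07 in shPax6 PBS.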

How the data were processed

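RNA-seq libraries (12) of mouse retina were used, with groups taken from the labels. By the paper's methods and the submitters' processing notes, the authors aligned reads to GRCm38 with STAR 2.7.1a, estimated abundance with RSEM 1.3.3 and worked with edgeR 3.36.0 in R 4.1.0. They deposited FPKM values for each gene and transcript in each library, unfiltered and without counts, so depth behind a value is unknown. Library precision was read from replicates (median absolute log2 difference 0.11 to 0.25 per group).

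Values were transformed as log2(FPKM + 0.1), and genes with a mean above 1 FPKM in at least 1 of 6 groups were kept (16471 of 55487). In R 4.3.3, limma 3.58.1 (eBayes with trend) estimated 6 group means, which left 6 residual degrees of freedom. A call needed a Benjamini-Hochberg adjusted p under 0.05 over all genes, an absolute log2 difference above 1 and a mean above 1 FPKM in a compared group. Members and lists were chosen with earlier results of these data known, so calls on members carry no p. Named genes were the members, the targeted genes, marker genes, up to 3 called companions per list and NMDA comparison by lowest adjusted p, and the 10 non-members with the highest r to the members. Spliced lengths and positions came from GENCODE M21 (99.83% of genes kept had a length), promoters from RefSeq. The fit was tested on simulated data. Replicate numbers did not pair libraries (r of deviations -0.0973 to 0.0858 over 15 pairs). Alternatives were other pseudocounts, filters, scalings and spreads, a length correction, a replicate block and each library left out. Figures used matplotlib 3.10.9.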

Additional observations from a re-analysis of the deposited data

Results flagged for a closer look

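The results here are differences between genotypes in the NMDA minus PBS difference, on the log2(FPKM + 0.1) scale, for genes above 0 in at least 1 library of each group compared. For members, every NMDA library moved one way from the PBS libraries in 1 genotype and the other way in the other. These member differences are a description, and no p is given for them. For WT minus shPax6 the value was *Csf3r* -2.03. For WT minus JNK3 KO the values were *S100a8* 6.14, *S100a9* 7.3 and *Retnlg* 7.56. For shPax6 minus JNK3 KO the values were *S100a8* 7.66, *S100a9* 7.65, *Retnlg* 5.17, *Cxcr2* 6.68 and *Csf3r* 5.29.

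For named companion genes, the difference itself passed in the limma model (Benjamini-Hochberg adjusted p under 0.05 over all genes). For WT minus shPax6 the differences were *C3* -3.24, *Il1r2* -2.96, *Spi1* -2.56, *Itgam* -2.55, *Fcgr4* -2.49, *Lyz2* -2.46, *Clec4d* -2.32, *Hp* -2.24, *Lcn2* -1.8, *Anxa1* -1.07 and *Hdc* 3.09. For WT minus JNK3 KO the differences were *Lyz2* 1.04, *Spi1* 1.22, *Fcgr4* 1.3, *Irf8* 1.72, *Cebpd* 1.78, *Cebpb* 1.88, *Cyba* 2.09, *Lcn2* 2.3, *Icam1* 2.52, *Hdc* 2.6, *Tnf* 2.71, *Mrgpra2b* 3.18, *Pglyrp1* 3.3, *Ccl3* 3.36, *Selplg* 3.45, *Clec4d* 4.01, *Hp* 4.51, *Il1r2* 4.54, *Cxcl1* 4.69, *Cxcl3* 6, *Il1b* 6.34, *Cxcl2* 6.74 and *Wfdc21* 6.95. For shPax6 minus JNK3 KO the differences were *Cebpd* 1.28, *Cebpa* 1.49, *Anxa1* 1.61, *Pglyrp1* 2.08, *Icam1* 2.09, *Cebpb* 2.14, *Cyba* 2.28, *Irf8* 2.64, *Itgam* 2.78, *Selplg* 3.28, *Ccl3* 3.34, *Lyz2* 3.5, *C3* 3.64, *Spi1* 3.78, *Fcgr4* 3.8, *Lcn2* 4.1, *Clec4d* 6.33, *Il1b* 6.72, *Hp* 6.75 and *Il1r2* 7.5. The WT minus JNK3 KO and shPax6 minus JNK3 KO differences were above 0 for all companions listed, while most of those for WT minus shPax6 were below 0, *Hdc* being the exception. The companions listed were picked from genes called in an NMDA comparison and again for passing here. Their shared sign therefore partly follows from that choice. The 3 pairs share genotypes, and no explanation of these values was tested.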

How the results depend on the processing

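Under the settings tried no call on a member changed sign, while other genes were followed only as counts. Of the count of members called, that in WT after NMDA was 3 rather than 5, and that for the WT minus shPax6 response 3 rather than 5, with a minimum on the mean over the 12 libraries, which tests fewer of the members; in shPax6 after NMDA it was 3 rather than 5 with the spread from the compared groups alone. That spread also gave 629 rather than 2146 genes called in shPax6 after NMDA, 294 rather than 686 for shPax6 minus WT under PBS, 178 rather than 649 for shPax6 minus JNK3 KO under PBS and 9 rather than 38 for JNK3 KO minus WT under PBS, where the length correction and a fit with no intensity trend each gave 25 and an unadjusted p 187. An unadjusted p gave 689 rather than 419 genes in JNK3 KO after NMDA. With 1 library left out, whose lone partner is then assumed to vary like the other groups, the counts ran from 207 to 493 in JNK3 KO after NMDA (207 without its second NMDA library, 224 and 251 without its first and second PBS library and 237 without its first NMDA library), from 17 to 50 for JNK3 KO minus WT under PBS (17 without the first JNK3 KO PBS library, 18 without the second WT PBS library and 22 without either JNK3 KO NMDA library) and from 419 to 960 for shPax6 minus WT under PBS (419 without the second WT PBS library). The cause of these shifts was not tested. By Spearman's rho, 4 of the 10 genes most like the members were shared with those by Pearson's r.

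A replicate block, though the replicate numbers did not pair the libraries, left 5 members called in WT after NMDA, 5 in shPax6 and 4 in JNK3 KO, and 5634, 2116 and 395 genes. FPKM do not show the counting error behind a value, and 2 libraries a group limit what can be seen for *Ngp*, *Camp*, *Ltf* and *Ly6g*, whose values are near 0.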
